A study of Mus musculus with 4 samples.

Results

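The transcripts described here are the unnamed gene models of mouse, those with a symbol made of Gm and digits or ending in Rik, that were far more abundant in the libraries labelled Irf8 knockout than in the libraries labelled WT. A model was taken when its normalised read count was at least 50 in both libraries labelled knockout and its mean there was at least 4 times the mean of the libraries labelled WT plus 1. The rule took 104 of the 24267 unnamed models in a table of 49490 genes, 74 with Gm symbols and 30 with Rik symbols. Since these values chose the members, their difference between the groups is given as a description with no test.

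The study sequenced polyadenylated RNA of CD8+ T cells, the cytotoxic T cell lineage, from mouse spleens and lymph nodes after activation in vitro. It compared Irf8-/- cells, 2 libraries labelled knockout, with cells carrying an Irf8 fl/fl allele, 2 libraries labelled WT, to find genes regulated by Irf8, a transcription factor of the interferon regulatory factor family that dendritic and other myeloid cells need. The labels give no strain, age, sex or Cre driver. Nothing states separate animals for the replicates, so a p-value here measures only the spread between libraries, which may be technical. The 4 libraries held 58899365 to 59724952 recovered reads.

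Irf8 itself went against the labels, with 89508 and 90222 normalised counts in the libraries labelled knockout and 6364 and 6081 in those labelled WT, a 14.4-fold higher mean in the first pair. The labels do not say which part of the gene was deleted. Each group is for that reason called by its label throughout, and a direction below is one between labels. Of 10 CD8 T cell markers, 9 were lower and 0 higher in the libraries labelled knockout, with summed normalised counts of 441623 and 449462 there and 645827 and 635464 in the libraries labelled WT. All marker lists were chosen with earlier results of these data known, so the counts are a description. All 20 listed markers of plasmacytoid dendritic cells, the interferon-producing lineage that depends on Tcf4, were higher, with sums of 360645 and 360187 against 31664 and 31103. For conventional dendritic cells 7 of 8 markers were higher, with sums of 33720 and 33902 against 13992 and 13626, and for neutrophils 7 of 7 tested, with 2732 and 2780 against 102 and 133. Irf7 of the plasmacytoid list and Itgax of the conventional list had log2 fold changes of only 0.23 and 0.13. Centring each library on its median, which moved the median over all genes from 0.02 to -0.28, takes both below 0. For B cells 2 of 7 tested were higher, with 1331 and 1321 against 312 and 284. Of the macrophage markers 4 of 7 tested were lower and 0 higher, with 1708 and 1992 against 3289 and 2971, and of the NK cell markers 3 of 5 were lower and 0 higher, with 15189 and 15160 against 22392 and 22992. None of 3 tested erythroid markers passed the test, with sums of 9430 and 9423 against 8105 and 9326, and no listed marker was at 0 in all 4 libraries. The part of these cells in the results below was not tested, and in bulk RNA more cells of a type and more RNA per cell cannot be told apart.

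Gene models without a name are mostly long noncoding RNAs, pseudogenes and single-exon transcripts found in cDNA collections, beside some protein-coding genes that no family name has yet reached. Long noncoding RNAs often start beside a coding gene, from its promoter region on the other strand or within its introns, and many are restricted to a cell type. Pseudogenes are copies of genes that have lost their coding capacity, and their reads are hard to tell from those of the intact copy.

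Across the 104 members, the mean normalised count ran between 55.2 and 4190 in the libraries labelled knockout, with a median of 157, and between 0 and 704 in the libraries labelled WT, with a median of 11.5. Summed over the members, the counts were 37998 and 38764 in the libraries labelled knockout, against 3930 and 3506 in the libraries labelled WT. As shares of all reads these were 0.0656% and 0.0669% under the knockout label, and 0.0066% and 0.0057% under the WT label. Unnamed models as a whole did not follow, at 3.43% and 3.41% of reads in the libraries labelled knockout and 3.62% and 3.61% in those labelled WT. Expression was uneven: the 8 most abundant members had means of 1076 to 4190 in the libraries labelled knockout, 33 members were under 100, and the 10 highest held 51.8% of the members' counts there.

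The median log2 fold change of the members, on the log2(normalised count + 1) scale, was 4.09 with a range of 2.01 to 9.91, beside a median of 0.02 over all 18378 genes tested. With limma on that scale, 103 of 104 members were called higher at a Benjamini-Hochberg adjusted p under 0.05, where 19.9% of all genes tested were called higher. Both libraries labelled knockout stood above both labelled WT for all 104, as they did for 36.5% of all genes tested. An adjusted p under 0.05 in the same direction stood in the authors' deposited table for 102 members, against 15.5% of the genes with an adjusted p there. Since the rule used this contrast, nothing is read from these counts. They also hang on both libraries labelled knockout: without replicate 1 of these, 47 members were called beside 7.39% of all genes, and without replicate 2, 43 beside 7.12%.

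**Figure D1:**
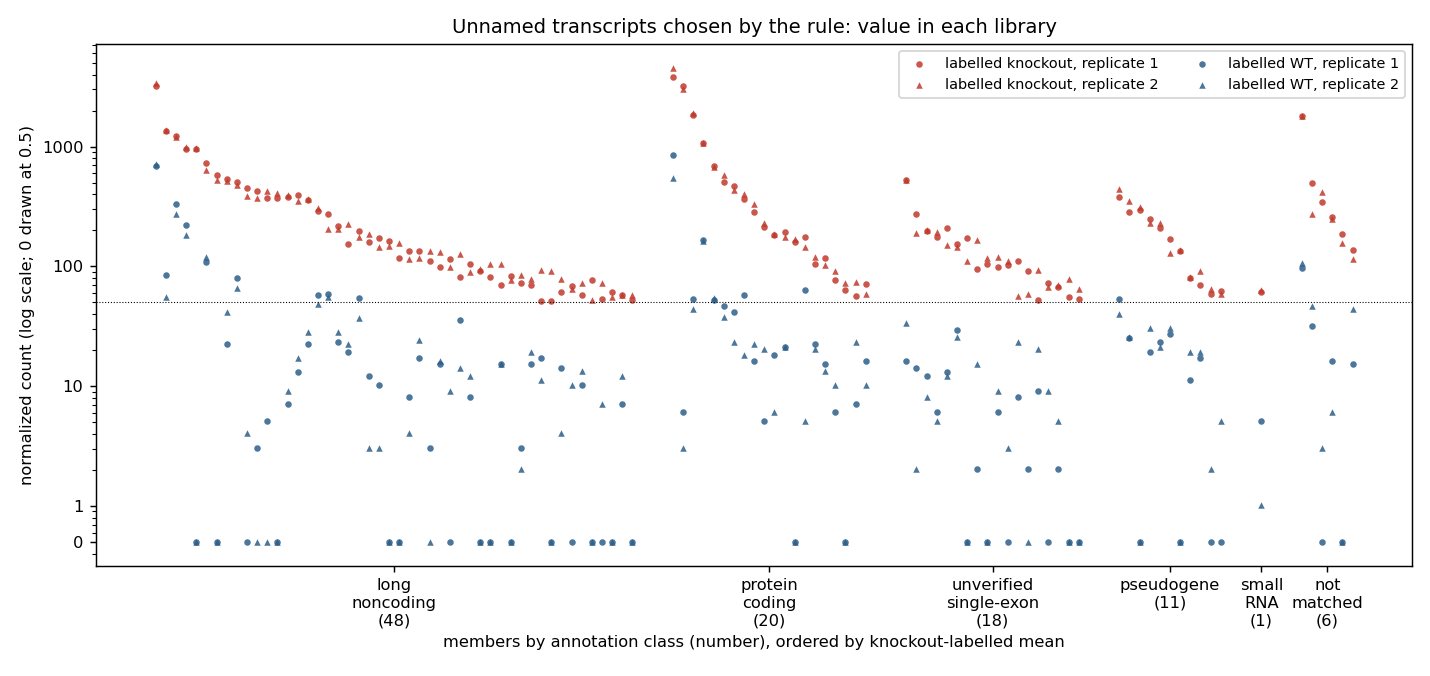
Normalised count (log scale, 0 drawn at 0.5) of each of the 104 members in the 2 libraries labelled knockout (red) and the 2 labelled WT (blue), by annotation class and in descending order of the mean in the libraries labelled knockout. The dotted line is the minimum of 50 in the rule; every red symbol lies above it, and many blue symbols lie at 0.

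The rule was one-sided, and its mirror image took few models. With the groups exchanged, 2 unnamed models passed, the noncoding Gm17041 (means of 20.5 in the libraries labelled knockout and 103 in those labelled WT) and the pseudogene Gm2830 (36.1 and 279). These 2 were 0.103% of the unnamed models at 50 or more in both libraries labelled WT. Named genes were not counted by the mirrored rule, so the asymmetry is not ascribed to unnamed models. Of the 2021 unnamed models at 50 or more in both libraries labelled knockout, 5.15% were members. Among named genes at that level, 785 of 11822, or 6.64%, passed the same thresholds. Passing the thresholds was therefore not confined to models without a name.

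By the GENCODE M21 annotation of GRCm38, which is the mm10 assembly, 98 members matched 1 gene each. They were 48 long noncoding RNAs, 20 protein-coding genes, 18 unverified single-exon models awaiting experimental evidence, 11 pseudogenes and 1 small RNA. Long noncoding RNAs made up 46.2% of the members and 32.6% of the other unnamed models tested, and pseudogenes 10.6% and 32.2%. Among unnamed models at 50 or more in both libraries labelled knockout, 8.07% of the long noncoding ones and 1.65% of the pseudogenes were members. Scaled to exon length and depth (RPKM, computed here), the median level of the members was 1.92 and 1.97 in the libraries labelled knockout and 0.0824 and 0.0906 in those labelled WT. The other unnamed models tested had medians of 0.714 and 0.709 in the libraries labelled knockout and 0.682 and 0.668 in those labelled WT.

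Among the protein-coding members the most abundant was 5031439G07Rik (chromosome 15, 84943936 to 84988551, minus strand), the mouse counterpart of KIAA0930 by its RefSeq synonym. It had 3820 and 4559 normalised counts in the libraries labelled knockout and 855 and 543 in those labelled WT, a 5.99-fold higher mean. Both groups thus held clear expression, and the libraries within each group differed. Gm21762 (chromosome 13, 120214593 to 120215947, minus strand) had 3221 and 3027 in the libraries labelled knockout against 6.11 and 3.06 in those labelled WT. This was the largest ratio of means, 681, among members with reads in both libraries labelled WT, and it rests on few reads there.

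I830077J02Rik lies on chromosome 3 (105924358 to 105932664, minus strand), 316 bases from Tmigd3, a gene of the immunoglobulin superfamily. It had 1846 and 1921 normalised counts in the libraries labelled knockout against 53.9 and 43.9 in those labelled WT, a 38.5-fold higher mean. Tmigd3 had 223 and 263 in the libraries labelled knockout against 7.12 and 0. C130026I21Rik and A530032D15Rik, both on chromosome 1 and both sharing sequence with the nuclear body gene Sp140, had means of 1076 ± 1.57 and 542 ± 56.2 in the libraries labelled knockout, against 164 ± 2.49 and 42.3 ± 6.39 in those labelled WT (SD, n = 2 each). Gm6377, on chromosome X, had 364 and 403 in the libraries labelled knockout against 58.0 and 18.4. The libraries labelled WT differed from each other for Gm6377.

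2 receptor families were represented among the coding members. Gm14548 and Gm15448 lie in the paired immunoglobulin-like receptor cluster of chromosome 7, whose products carry activating or inhibitory signals in myeloid and B cells. Gm14548 had 688 and 672 normalised counts in the libraries labelled knockout against 52.9 and 54.1 in those labelled WT, and Gm15448 had 286 and 330 against 16.3 and 22.5. B430306N03Rik and A530064D06Rik lie in the TREM cluster of chromosome 17 and carry the RefSeq synonyms Treml6 and Trem4. TREM receptors are immunoglobulin-type receptors of myeloid cells, several of which signal through an adaptor. B430306N03Rik had 471 and 433 normalised counts in the libraries labelled knockout against 41.7 and 23.5. A530064D06Rik, named here after its values were seen, had 212 and 232 against 5.09 and 20.4.

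The long noncoding members were led by Gm5547 (chromosome 3, 105815540 to 105817357, plus strand), with 3221 and 3414 normalised counts in the libraries labelled knockout and 688 and 721 in those labelled WT. With 5031439G07Rik it was the most abundant member in the libraries labelled WT. Its RPKM was 69.8 and 74.0 in the libraries labelled knockout and 14.4 and 14.8 in those labelled WT. A530040E14Rik, on chromosome 1 (85105946 to 85114035, plus strand), had 1356 and 1369 normalised counts in the libraries labelled knockout against 85.5 and 55.1. Gm26780, antisense to Abr, had 1227 and 1192 against 331 and 272, and lay just inside the rule. Gm1965, on chromosome 6 with no tested named gene within 100 kb, had 535 and 513 against 22.4 and 41.9. Gm20633, which starts 305 bases from the histone gene Hist2h3c1, had 950 and 1001 against 222 and 183.

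Gm26781, on chromosome 1, had the next largest ratio of means after Gm21762 among members with reads in both libraries labelled WT. It had 383 and 391 normalised counts in the libraries labelled knockout against 7.12 and 9.19 in those labelled WT, a 47.5-fold higher mean. Its exons overlap those of the receptor gene Gpr25 on the other strand over 30.3% of their length, and Gpr25 had 84.3 and 100.3 against 4.07 and 1.02.

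A second set of long noncoding members was all but absent from the libraries labelled WT. Gm13919 (chromosome 2, 102039629 to 102066725, plus strand) had 953 and 967 normalised counts in the libraries labelled knockout and 0 reads in both labelled WT, at least 314-fold higher when 3 reads per library are taken as the floor. Gm14207 had 580 and 529 against 0 and 0, at least 181-fold higher, and Gm12503 had 375 and 407 against 0 and 0, at least 128-fold higher. In all, 21 members had 0 reads in both libraries labelled WT, with means of 55.2 to 960 in the libraries labelled knockout and bounds of at least 18.04-fold to 314-fold. These bounds cover counting error only. Another 13 members had reads in 1 of the libraries labelled WT, and for the 70 with reads in both the ratio of means ran from 4.02 to 681, with a median of 9.33.

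The unverified single-exon models covered a narrower range, 59.1 to 530 in the libraries labelled knockout and 0 to 27.5 in those labelled WT. Gm42602 had 529 and 530 normalised counts in the libraries labelled knockout against 16.3 and 33.7 in those labelled WT, and Gm38345, beside the homeobox gene Hhex, had 197 and 202 against 12.2 and 8.17. Both gave nearly equal values in the 2 libraries labelled knockout. Gm45206 and C130089K02Rik, which lie within the semaphorin gene Sema4b and the Notch coactivator gene Maml3 on the same strand, had means of 181 ± 40.9 and 149 ± 7.60 in the libraries labelled knockout, against 12.7 ± 0.690 and 27.5 ± 2.82 in those labelled WT (SD, n = 2 each). Gm44891, within the chondroitin sulfotransferase gene Chst15, had 172 and 111 in the libraries labelled knockout and 0 reads in both labelled WT. For single-exon models inside an intron on the gene's own strand, reads of unspliced host RNA and of a separate transcript cannot be told apart in these counts.

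Among the 11 pseudogenes, 3 of the most abundant belong to the paired immunoglobulin-like receptor family. Gm15922 had 380 and 444 normalised counts in the libraries labelled knockout against 53.9 and 39.8 in those labelled WT, Gm15925 had 283 and 350 against 25.4 and 25.5, and Gm15931 had 210 and 231 against 23.4 and 21.4. Gm11787 shares 68.1% of its sequence words with Lyn, the Src-family kinase of myeloid and B cells, and had 251 and 230 against 19.3 and 30.6. Gm13502, a copy of the isoprenoid synthesis gene Idi1, had 170 and 128 against 27.5 and 30.6, and Gm38158 had 80.3 and 81.8 against 11.2 and 19.4. Gm44248, within the Ly49 receptor gene Klra17 on the other strand, had 133 and 138 against 0 and 0. The remaining classes were small: the small RNA Gm25436 had 60.7 and 63.3 against 5.09 and 1.02, and 6 members had no single match in the annotation. Of these, A830010M20Rik, 1700024P16Rik and A530099J19Rik are synonyms of Btbd8, Fyb2 and Gpr141b in RefSeq.

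Gm43291, one of the 3 members with no match in either annotation, was the fifth most abundant member, with 1794 and 1785 normalised counts in the libraries labelled knockout against 96.7 and 107 in those labelled WT. Gm45108, also unmatched, had 258 and 251 against 16.3 and 6.13. 1700024P16Rik had 347 and 420 against 0 and 3.06, and A530099J19Rik had 188 and 156 against 0 and 0. As for all 104 members, values of the groups did not overlap for these 4, beside 36.5% of all genes tested. The rule all but fixes this, so nothing is read from it.

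The 2 libraries labelled knockout differed by a median of 12.5% of their mean over the members, beside 9.67% over the 1917 other unnamed models at that level. The members with the widest gap were Gm45244 (112 and 56.5 in the libraries labelled knockout, 8.14 and 23.5 in those labelled WT) and A830010M20Rik (496 and 274, against 31.5 and 47.0). 9330159M07Rik had 51.9 and 93.4 against 17.3 and 11.2, 4930555A03Rik had 51.9 and 91.5 against 0 and 0, and 9530078K11Rik had 52.9 and 92.5 against 9.16 and 20.4. Their values did not overlap between groups, as for every member, which the rule all but fixes. Replicate 1 was the higher of the libraries labelled knockout for 45 members and replicate 2 for 59.

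Near the fold threshold, Gm36995, Gm26780 and C130050O18Rik stood just inside with means of 4.002, 4.003 and 4.01 times the mean of the libraries labelled WT plus 1. 4933439C10Rik, 2700081O15Rik and Gm37416 stood just outside with 3.98, 3.97 and 3.90 times. Near the minimum of 50, 4930555A03Rik, 9330159M07Rik and Gm12066 passed with lower values of 51.9, 51.9 and 52.6, while F630028O10Rik and 9430020K01Rik, both with a lower value of 49.97, and Gm19719 with 48.0 did not. The boundary therefore separates models with almost equal values.

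Promoter sequence, which the rule did not use, was read from RefSeq for GRCm38.p6 as the 250 bases before and 50 bases after each annotated start. It was given for 38 members with 44 promoters. 7 sets of letters that resemble binding sites of lymphoid and myeloid factors or the TATA box were searched on both strands. GAGGAAGT, letters like those bound by PU.1 and related Ets factors, occurred in 10 of 44 member promoters, or 22.7%, against 3.19% of 12539 promoters of other unnamed models and 3.20% of all 32851 promoters of this length. The Ets-IRF composite letters, GGAA and GAAA with any 2 bases between, like the element bound by an Ets factor with IRF4 or IRF8, occurred in 9.09% of member promoters and 2.72% of all promoters. The interferon response letters, GAAA repeated after any 2 bases, occurred in 6.82% and 3.44%.

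The E-box CAGCTG occurred in 11.4% of member promoters and 16.3% of all promoters, the Runx letters TGTGGT in 22.7% and 16.8%, and the TATA letters TATAAA in 11.4% and 13.6%. The AP-1 and IRF composite letters, TGANTCA with GAAA after any 4 bases, occurred in 0 member promoters and in 0.119% of all promoters. Median GC content was 51.3% in member promoters, 48.3% in those of other unnamed models and 52.7% overall. GAGGAAGT and the Ets-IRF letters share GGAA, and the Ets-IRF and interferon response letters share GAAA. The promoters set beside those of the members were not limited to genes expressed here. Every member had at least 50 normalised counts in both libraries labelled knockout, so the sets differ in expression too. Shares among expressed genes alone were not computed. The counts are small, no test was made, and a match of letters does not show that a factor was bound.

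**Figure D2:**
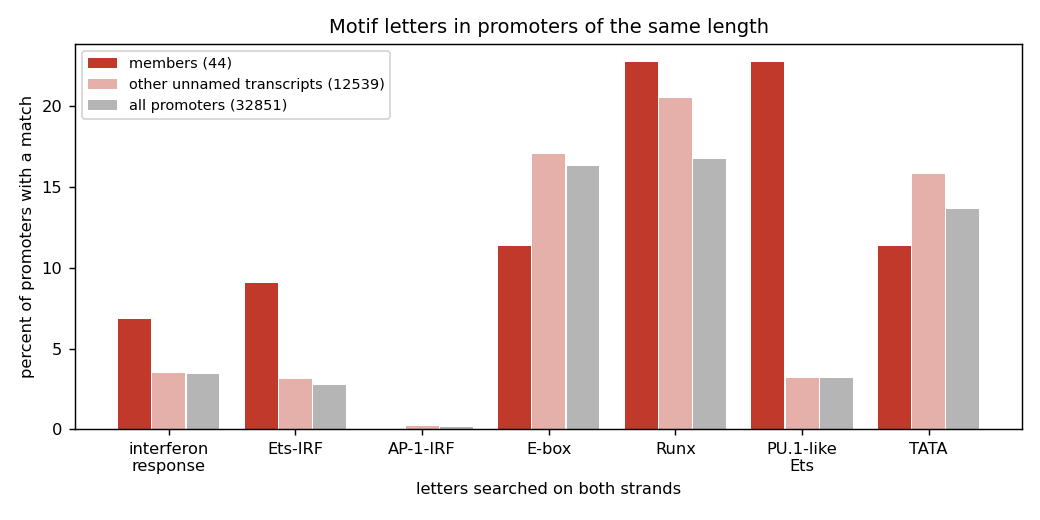
Percent of promoters (300 bases each) that hold each set of letters on either strand, for 44 promoters of members, 12539 of other unnamed models and all 32851 promoters. The PU.1-like bar of the members stands at 22.7% against 3.20% of all promoters, while the E-box and TATA bars of the members lie below those of the other sets.

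The 10 promoters with GAGGAAGT are shown because they carry this difference. Each line gives the letters in capitals with up to 25 bases on either side, 5′ to 3′ on the gene's strand, and ACTTCCTC is the same element on the other strand.
Gm14548: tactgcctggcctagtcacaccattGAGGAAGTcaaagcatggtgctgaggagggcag
Gm15448: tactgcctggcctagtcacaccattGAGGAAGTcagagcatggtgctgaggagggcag
A530064D06Rik: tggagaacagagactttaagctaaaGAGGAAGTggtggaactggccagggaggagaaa
B430306N03Rik: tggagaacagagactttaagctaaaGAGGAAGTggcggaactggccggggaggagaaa
I830077J02Rik: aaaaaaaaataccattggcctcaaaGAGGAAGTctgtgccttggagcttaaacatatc
Gm5547: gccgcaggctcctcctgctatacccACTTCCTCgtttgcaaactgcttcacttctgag
A530040E14Rik: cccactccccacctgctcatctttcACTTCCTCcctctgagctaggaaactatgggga
Gm13546: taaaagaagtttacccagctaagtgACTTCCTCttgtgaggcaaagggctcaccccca
Gm26947: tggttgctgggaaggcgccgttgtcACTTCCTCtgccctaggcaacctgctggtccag
3300005D01Rik: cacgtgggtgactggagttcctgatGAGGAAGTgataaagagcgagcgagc
In 7 of the 10 the letters began within 130 bases before the annotated start, and in 6 they were in the gene's own orientation. They are not 10 independent sequences: the windows of Gm14548 (chr7:3898228-3898285) and Gm15448 (chr7:3825785-3825842) were identical at 57 of 58 bases. Those of A530064D06Rik (chr17:48167294-48167351) and B430306N03Rik (chr17:48316065-48316122) were identical at 56 of 58 bases. Each of these pairs lies in 1 receptor cluster. The 10 genes had mean normalised counts of 190 (3300005D01Rik) to 3317 (Gm5547) in the libraries labelled knockout.

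The promoters of I830077J02Rik and A530040E14Rik each hold 3 of the 7 sets of letters, and that of I830077J02Rik (chr3:105932615-105932914, minus strand) is shown whole. Its capitals mark the Runx letters, the interferon response letters beginning 112 bases before the start, and GAGGAAGT beginning 64 bases before it. The promoter of A530040E14Rik has the Ets-IRF letters in place of the interferon response letters.
I830077J02Rik: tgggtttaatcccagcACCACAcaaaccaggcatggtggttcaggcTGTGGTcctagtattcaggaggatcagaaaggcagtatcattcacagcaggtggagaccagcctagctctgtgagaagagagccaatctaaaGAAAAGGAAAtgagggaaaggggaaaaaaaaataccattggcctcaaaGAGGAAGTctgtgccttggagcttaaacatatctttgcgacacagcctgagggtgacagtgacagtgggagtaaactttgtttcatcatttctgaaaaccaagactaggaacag
The promoter of Gm14207 (chr2:119326148-119326447, minus strand) is shown as one that lies within a coding gene, the Notch ligand gene Dll4, on the other strand. The annotated starts of the 2 genes are 410 bases apart. It has no GAGGAAGT, and its capitals mark the E-box.
Gm14207: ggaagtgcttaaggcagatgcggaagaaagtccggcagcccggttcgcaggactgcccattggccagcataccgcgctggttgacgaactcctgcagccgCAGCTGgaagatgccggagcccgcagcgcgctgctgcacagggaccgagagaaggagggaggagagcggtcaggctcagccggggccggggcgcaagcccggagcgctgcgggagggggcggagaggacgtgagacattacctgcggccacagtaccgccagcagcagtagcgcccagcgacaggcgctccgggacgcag
Its GC content was 68.7%, against 46.0% for the promoter of I830077J02Rik. Gm14207 had 0 reads in the libraries labelled WT and Dll4 6.11 and 7.15, so both were near absence there.

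Many members lay beside named genes that were themselves higher in the libraries labelled knockout. For each member with an annotated locus the nearest named gene that was tested and lay within 100 kb was taken. There were 86 such members with 78 distinct neighbours. The neighbour was called higher for 61 of the 86, or 70.9%, against 24.9% for 3585 other unnamed models taken the same way. It was more than 4-fold higher for 48.8%, against 4.94%, and called lower for 6 of the members, or 6.98%, against 18.5%. The neighbours' median log2 fold change was 1.99, and 0.00 beside other unnamed models. Neighbours share the libraries and the contrast with the members, so these shares carry no test. Without replicate 1 of the libraries labelled knockout the share was 53.5%, against 12.1% for the others, and without replicate 2 it was 52.3%, against 11.6%. When each library was centred on its median, which moved the median log2 fold change of all genes tested to -0.28, against 0.02 before, it was 64.0%, against 15.5%, a setting added after seeing the data.

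**Figure D3:**
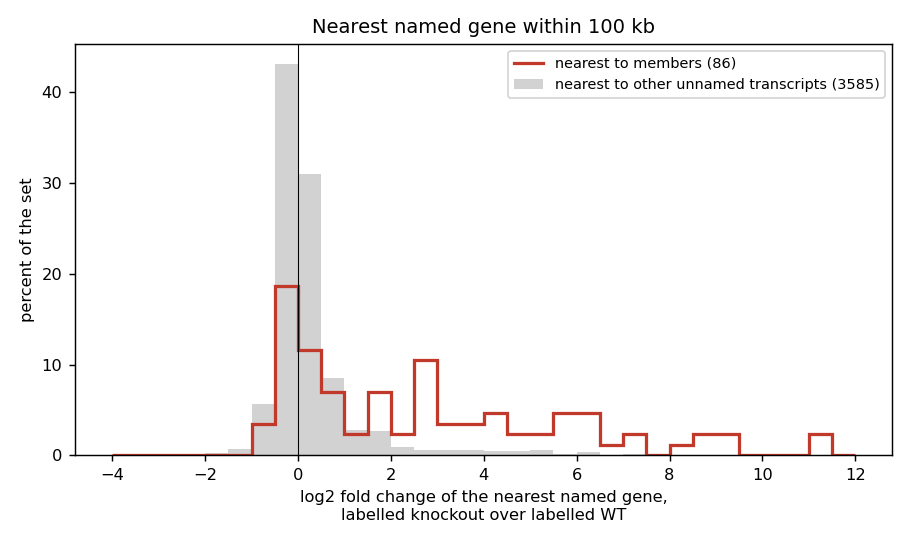
Distribution of the log2 fold change (libraries labelled knockout over libraries labelled WT) of the nearest named gene within 100 kb, as percent of each set, for 86 members (red outline) and 3585 other unnamed models (grey). The grey set centres on 0, with a median of 0.00, while the red set has a median of 1.99 and a long right tail.

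The share was lower beyond 5 kb than nearer, a difference that was not tested. The neighbour was called higher for 22 of 27 members that overlapped a named gene on the opposite strand, for 9 of 12 that overlapped on the same strand, and for 13 of 16 within 5 kb. For other unnamed models in the same positions the shares were, in that order, 25.7%, 27.8% and 19.9%. Between 5 and 100 kb the neighbour was called higher for 17 of 31, beside 24.0% for other unnamed models at that distance. By class, the count was 13 of 14 for unverified single-exon models, 33 of 45 for long noncoding RNAs, 9 of 16 for protein-coding members and 5 of 10 for pseudogenes. The share for other unnamed models was not taken by class and was 24.9% over all of them, so the classes are not compared. Across the 86 pairs the log2 fold changes of member and neighbour had a Pearson r of 0.53 and a Spearman rho of 0.54, against 0.35 and 0.32 for the 3585 other unnamed models and their nearest named genes. The members were chosen by 1 of the values correlated. These points share the 4 libraries, and some share a neighbour, so no p is given.

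**Figure D4:**
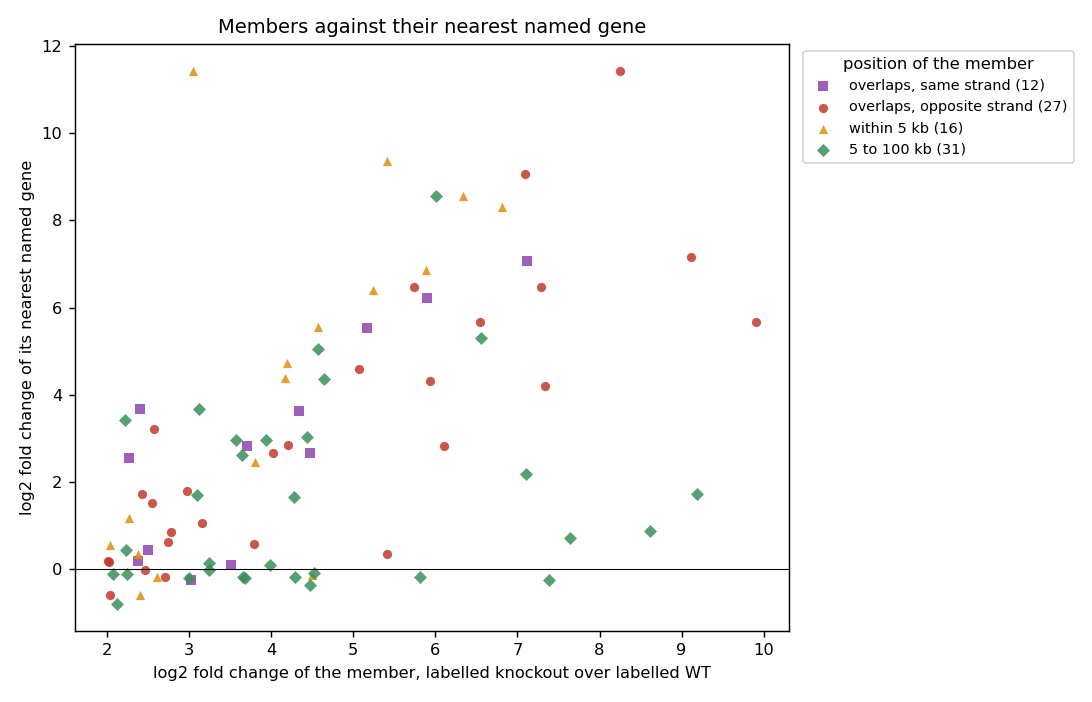
Log2 fold change of each of 86 members (x axis) against that of its nearest named gene (y axis), libraries labelled knockout over libraries labelled WT, by position. Members chosen by the rule start at 2.01 on the x axis; the neighbours' median is 1.99 and reach above 11 for the pair beside Klk1.

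Gm13919 and Gm13920 overlap Ldlrad3, a receptor of the LDL receptor family, on the other strand. Gm13920 had 81.3 and 104 normalised counts in the libraries labelled knockout against 0 and 0, and Ldlrad3 itself 1456 and 1410 against 24.4 and 30.6. Dll4, antisense to Gm14207, had 1071 and 1121 in the libraries labelled knockout. Hhex had 2699 and 2599 against 98.7 and 98.0, and its start lies 154 bases from that of Gm38345. Lyn had 7474 and 7541 against 802 and 822, and the antisense Gm26857 across it had 726 and 640 against 109 and 119. In each of these pairs both genes were higher in the libraries labelled knockout.

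Other pairs outside the naming rule were chosen after their values were seen. Gm26597 overlaps Flt3, the receptor tyrosine kinase of dendritic cell progenitors, with starts 935 bases apart, and had 163 and 148 normalised counts in the libraries labelled knockout and 0 reads in both labelled WT. Flt3 had 7887 and 8148 against 99.7 and 78.6. Bcl11a, a zinc finger transcription factor needed by plasmacytoid dendritic cells and B cells, had 12068 and 11660 against 31.5 and 29.6. It has 2 members beside it, Gm12063 at 689 bases (83.3 and 76.9 against 0 and 0) and Gm12066 at 27.3 kb (76.4 and 52.6 against 0 and 0). Gm32391, 4.09 kb from the sodium pump subunit gene Atp1b1, had 60.7 and 55.5 against 0 and 0, and Atp1b1 had 23110 and 23392 against 178 and 219. Atp1b1 and Klk1 are in the plasmacytoid dendritic cell list, and Flt3 is in the conventional dendritic cell list.

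Irf8 has a member upstream on its own strand. Gm33142 (chromosome 8, 120685399 to 120686265, plus strand) ends 50093 bases before Irf8 and had 98.0 and 120 normalised counts in the libraries labelled knockout against 6.11 and 9.19 in those labelled WT, a 14.2-fold higher mean beside 14.4-fold for Irf8. The ratio of Gm33142 rests on 15 reads in the libraries labelled WT, and the pair was picked after its values were seen. The standard error of its log2 fold change was 0.38, beside 0.035 for Irf8, so the closeness of the ratios is loose. The nearest named gene to Gm33142 is Cox4i1, a subunit of cytochrome c oxidase, which had 39430 and 39299 against 42960 and 47194. The nearest named gene is thus not always the one whose ratio is closest.

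Some abundant members lay beside genes with a smaller fold or the opposite direction. 5031439G07Rik lies 973 bases from Nup50, a nuclear pore component with 4287 and 4033 normalised counts in the libraries labelled knockout and 4636 and 4811 in those labelled WT. Gm26780 is antisense to Abr, with 5682 and 5523 against 4932 and 4978, and Gm20633 is near Hist2h3c1, with 88.2 and 86.6 against 29.5 and 49.0. Abr had a log2 fold change of 0.18, which the shift from median centring takes below 0. A430035B10Rik, with 508 and 475 against 79.4 and 66.4, starts 830 bases from Glcci1, a glucocorticoid-induced gene with 3821 and 3952 against 2729 and 2308. The fold of these members was larger than that of the gene beside them. The rule set a minimum fold for every member but none for the genes beside them. These pairs were also grouped here by the neighbour's smaller fold or opposite direction, so nothing is read from this difference.

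Members also lay together in the genome, with 23 of them in 8 groups whose neighbours were within 100 kb, and 3 groups held 3 or more. Such groups were not counted among other unnamed models, so nothing particular to the members is read from these counts. The first of the 3 groups is the receptor cluster of chromosome 7. There Gm15922, Gm15925, Gm15448, Gm14548 and Gm15928 lie in 262 kb, and Gm15931 follows further along. Gm15928, a pseudogene, had 62.7 and 59.4 normalised counts in the libraries labelled knockout against 0 and 5.11. Named receptors of the cluster were higher too. The inhibitory receptor gene Pirb had 5189 and 5763 against 410 and 445, the activating Pira2 had 514 and 555 against 74.3 and 61.3, and the collagen receptor gene Lair1 had 18501 and 19563 against 977 and 880. Lilra6 had 320 and 306 against 42.7 and 58.2, while Rps9, a ribosomal protein gene at its edge, had 115265 and 114528 against 131908 and 135908. The members of this cluster share 61.4% to 95.6% of their sequence words with other genes, apart from Gm15928, so their counts depend on how reads were divided between copies.

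The second group is C130026I21Rik, A530032D15Rik and A530040E14Rik on chromosome 1 (84992690 to 85270566), upstream of Sp100, Sp110 and Sp140, which encode interferon-inducible nuclear body proteins. Gm16094 and Gm10552 lie at the start of Sp140 itself. Gm16094 had 72.5 and 84.7 normalised counts in the libraries labelled knockout against 3.05 and 2.04, and Gm10552 had 99.0 and 132 against 15.3 and 16.3. Gm10552 shares 54.1% of its sequence words with the more abundant A530040E14Rik, so its count depends on how reads were divided between them. A530032D15Rik, A530040E14Rik and C130026I21Rik share 52.1%, 49.1% and 43.6% of their words with other genes. For A530032D15Rik and C130026I21Rik the foremost of these is Sp140. The counts of these members thus depend on the division of reads too. The 3 named genes did not follow in step: Sp140 had 5363 and 5302 against 2992 and 2887, Sp110 had 14675 and 15764 against 16296 and 17290, and Sp100 had 22068 and 21860 against 29959 and 29419. Of 13 other genes with a mean of at least 30 in a group between C130026I21Rik and Sp100, 1 was more than 2-fold higher and 0 more than 4-fold. This cut leaves out less abundant models that were raised and are not members. Among them are Gm10553, whose exons overlap those of A530032D15Rik, and Gm2666, nearest to Sp110, with log2 fold changes of 3.47 and 2.76.

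The third group is Gm4258, Gm37298, Gm37124, A130050O07Rik and Gm37534 in 102 kb of chromosome 1 (137898595 to 138000384), all on the plus strand. Gm4258, a noncoding RNA that spans the others, had 394 and 350 normalised counts in the libraries labelled knockout against 13.2 and 17.4, and Gm37298 had 274 and 191 against 14.2 and 2.04. Gm37124 had 177 and 194 against 6.11 and 5.11, A130050O07Rik 96.0 and 167 against 2.04 and 15.3, and Gm37534 55.8 and 77.9 against 0 and 0. The last 4 are single-exon models within the span of Gm4258, and unspliced RNA of Gm4258 cannot be told apart from them. The nearest named gene is Ptprc, which encodes CD45, the phosphatase on all leukocytes, 62.5 kb away on the other strand. It had 75756 and 73112 normalised counts in the libraries labelled knockout and 78855 and 78572 in those labelled WT, so Ptprc itself was not raised. Where the raised stretch ends is not read from this gene alone. A430106G13Rik and A130071D04Rik, not members and nearest to Ptprc, had log2 fold changes of 2.83 and 0.46. Gm26930, also not a member, lies within the span of Gm4258 and had 31.4 and 50.6 against 6.11 and 0.

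**Figure D5:**
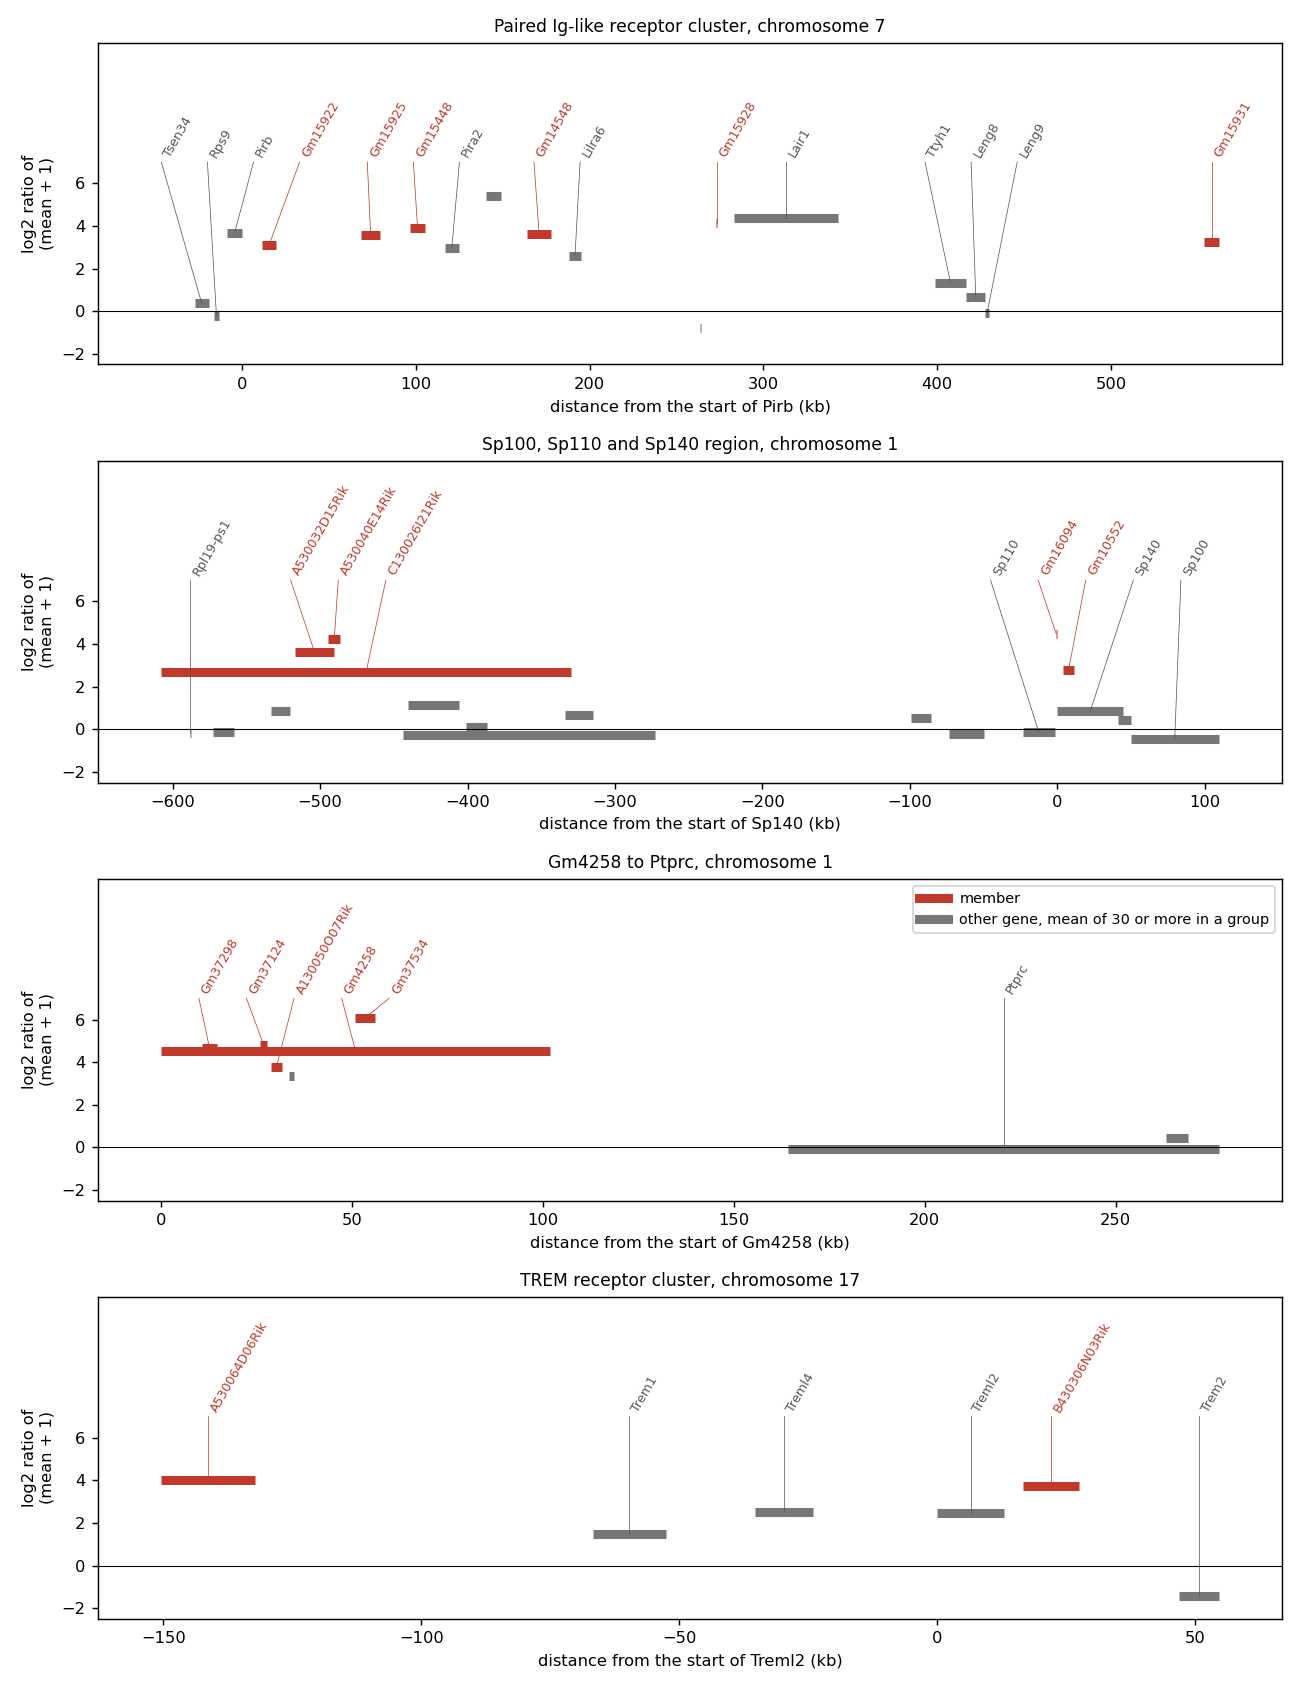
Log2 ratio of the group means plus 1, libraries labelled knockout over libraries labelled WT, for members (red) and other genes with a mean of at least 30 in a group (grey) in 4 stretches of the genome, against the distance in kb from a named start. Pirb, Lair1 and Treml2 lie above 2 beside the members, whereas Sp100, Sp110 and Ptprc lie near or below 0.

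In the TREM cluster the order differed by receptor. Treml2, next to B430306N03Rik, had 861 and 828 normalised counts in the libraries labelled knockout against 152 and 156, and Trem1 had 177 and 170 against 88.5 and 33.7. Trem2, a lipid receptor of macrophages, went the other way, with 31.4 and 38.9 against 99.7 and 90.9. On chromosome 7, Gm10109 (294 and 311 against 0 and 0) and 1700028J19Rik (193 and 176 against 21.4 and 21.4) lie at the kallikrein gene Klk1, which had 16476 and 17344 in the libraries labelled knockout against 8.14 and 3.06. The span of Gm10109 overlaps that of Klk1 on the other strand, while its exons overlap those of no other gene.

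Sequence shared with other genes bears on how far a member's count is its own. Of the 98 annotated members, 18 share at least 50% of their 31-base words with transcripts of other genes on either strand, 30 share at least 25%, and 55 share under 5%. Gm13502 shares 100% of its words with other genes, foremost Idi1, which had 2167 and 2006 normalised counts in the libraries labelled knockout against 433 and 443. Gm21762 shares 80.4% with D13Ertd608e, a gene with 2501 and 2407 against 11.2 and 10.2, and Gm13305 shares 75.6%, mostly with Il11ra1, which had 1163 and 1150 against 164 and 180. For these 3 the related gene was higher in the same direction, but they do not stand for all 18. Gm36995 shares 92.3%, foremost with Ccdc22, which was not higher, with 1250 and 1307 against 1406 and 1391. Gm20503 shares 98.1%, mostly with Gng10, was the member not called by limma, and had 174 and 146 in the libraries labelled knockout against 63.1 and 5.11. Exons of 36 members overlap those of another gene, 27 of them on the opposite strand, and whether the counting used strand is not stated.

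The share of neighbours called higher was also taken over members with little shared sequence. Among the 60 members that share under 25% of their words and have a neighbour within 100 kb, 47, or 78.3%, had one that was called higher. Among the 34 of these that overlap no named gene the count was 24, or 70.6%. Both subsets were chosen after the data had been seen. Shared words were counted for members only, so neither share has a matching one among other unnamed models. Over all other unnamed models with a neighbour, the share was 24.9%.

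The 98 members with a locus lay on every chromosome but 12, with 17 on chromosome 1, 12 on chromosome 7 and 10 on chromosome 2. The 1 member on chromosome Y, Gm4017, lies within the helicase gene Ddx3y and had 58.8 and 65.2 normalised counts in the libraries labelled knockout against 0 and 2.04. Ddx3y had 1436 and 1258 against 15.3 and 51.1, and Uty 346 and 329 against 0 and 0, while Xist, the noncoding RNA of the inactive X chromosome, had 11724 and 10907 against 18353 and 17767. Sex-linked transcripts thus moved with the labels, and for Gm4017 the sex of the cells and the genotype cannot be told apart.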

How the data were processed

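Polyadenylated RNA of 4 libraries was measured, grouped by the genotype labels. The submitters' processing notes name mm10 and the tools HISAT2 2.2.1, DESeq2, StringTie 2.1.4 and Trim Galore 0.4.4. Strand use, settings, the annotation and the DESeq2 version are not stated there. The authors deposited normalised counts, a signal per gene and library. Their log2 fold change (WT over knockout), Wald score, p-value and adjusted p-value were deposited beside it. The values were whole multiples of 1 step within 0.01 reads for 100.00% of values, so reads were recovered.

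The members and all lists were chosen with earlier results of these data known. The main test was limma 3.58.1 on log2(normalised count + 1) for the 18378 genes at 10 or more in at least 2 libraries, two-sided, adjusted by Benjamini-Hochberg over all genes, without a block. It was tested on simulated data. With 2 libraries against 2 an exact permutation test cannot go below 0.333. edgeR 4.0.16 and DESeq2 1.42.0 on recovered reads were alternatives, with other pseudocounts, filters, scalings, thresholds and libraries.

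Loci came from GENCODE M21 matched by symbol, and promoters and synonyms from RefSeq (GRCm38.p6). Named members were the most abundant 8 of each class (4 in small classes), the 5 highest without reads in WT, the 5 largest ratios, the 5 widest gaps, those at the edges of the rule, the 10 most abundant within 5 kb of a named gene, and those in groups of 3 or more. Chosen after their values were seen were A530064D06Rik, Gm10552, Gm13305, Gm13920, Gm20503, Gm26597, Gm12063, Gm12066, Gm32391, Gm33142, Gm4017, 1700028J19Rik, A530030E21Rik, Gm42528, F930015N05Rik and, for promoter letters, Gm13546, Gm26947 and 3300005D01Rik. With 0 reads up to 3 per library are possible at a 95% level. Such limits cover counting error only, since copies made by polymerase were not told apart.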

Additional observations from a re-analysis of the deposited data

How the results depend on the processing

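The rule took 83 to 109 models when the scaling or the value added to the mean of the libraries labelled WT changed, 72 at a fold of 8 and 111 to 126 when 1 library was left out. It took 169 with a minimum of 20, 66 with a minimum of 100 and 208 with a fold of 2. With median centring 9599 genes were called, against 6131 without, and 24.9% of them were higher, against 59.7%. Leaving out 1 library gave 1939 to 6896 genes called, with 2052 without replicate 1 and 1939 without replicate 2 of the libraries labelled knockout, and 43 to 104 members called. Members called stayed at 98 to 104 under every other alternative. The median log2 fold change of the members, 4.09, was 3.79 after centring, 4.22 with a pseudocount of 0.1, 2.91 with 10, 3.94 by edgeR, 3.95 by DESeq2, 4.48 for members sharing under 25% of their words (chosen after seeing the data), and 3.74 to 4.07 without 1 library. The share of neighbours called higher, 70.9%, was 52.3% to 73.3% without 1 library. With the replicate number as a block, 5583 genes and 104 members were called and the share was 69.8%. Same-numbered libraries did not deviate together (r = 0.0173 over 18378 genes), and the labels do not say what a number marks, so the block is no pairing known from the design. With 0 reads in a library, up to 3 reads' worth of a model is allowed by counting error, at 58899365 or more reads a library.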

Other observations

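Variable segments of antibody light chains lay beside 2 members. A530030E21Rik, 1835 bases from the lambda segment Iglv3, had 105 and 118 normalised counts in the libraries labelled knockout and 0 reads in both labelled WT. Iglv3 had 548 and 563 against 0 and 2.04. Gm25436 lies 525 bases from the kappa segment Igkv14-111, which had 138 and 128 against 4.07 and 7.15. Of the B cell markers in the same libraries, Cd79b had 1112 and 1113 against 138 and 134, while Pax5 had 3.92 and 6.81 against 6.11 and 0.

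Sulfotransferase genes stood beside 3 members. Gm42528, 3.59 kb from the heparan sulfate sulfotransferase gene Hs3st1, had 91.1 and 58.4 normalised counts in the libraries labelled knockout against 2.04 and 0, and Hs3st1 had 3552 and 3564 against 6.11 and 3.06. F930015N05Rik, whose exons overlap those of Hs3st3a1 on the other strand over 86.4% of their length, had 63.7 and 72.0 against 0 and 0, and Hs3st3a1 had 128 and 92.5 against 25.4 and 8.17. Chst15, the host of Gm44891, had 2227 and 2282 against 16.3 and 15.3. These pairs were picked after their values were seen, and no test was made of them as a group.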
